A study of Mus musculus with 3 samples.

Results

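Osteoclasts are the bone-resorbing giant cells that arise when precursors of the macrophage lineage fuse, and the genes described here are 10 genes of that differentiation pathway, chosen as a named list and found by gene symbol on the array. All 10 were present, with 19 probes between them, out of 26840 genes with a symbol. They were measured in RAW 264.7 cells, a mouse macrophage line, on 3 one-colour microarrays, with 1 array for each condition. The conditions were LPS alone, *L. rhamnosus* CRL1505 followed by LPS (CRL1505 + LPS), and *L. plantarum* CRL1506 followed by LPS (CRL1506 + LPS). The lactobacilli were given at 50000000 cells/mL for 24 h and washed away before LPS was added at 50 ng/mL, so LPS was shared by all the cells compared. The duration of LPS is given as 12 h in the design of the series and as 3 h in the sample descriptions. RANKL was named in none of the treatments, and cells without LPS were not analysed here. Since each condition had a single array, no replicate check and no p-value can be given, and a difference is described by its size.

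In the osteoclast pathway, the cytokine RANKL binds its receptor RANK on precursors that also receive M-CSF. RANK signals through TRAF6 to NF-κB, MAP kinases and AP-1, while receptors that pair with ITAM adapters raise calcium, and both routes converge on NFATc1, the factor regarded as the main switch of the programme. NFATc1 then turns on genes for cell fusion, acid secretion and matrix digestion, and RAW 264.7 cells are widely used as precursors because RANKL turns them into osteoclast-like cells.

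The level of a probe is given as the log2 intensity relative to the 75th percentile over gene spots on that array, so that 0 stands for that percentile, while a log2 ratio is the difference between levels of the same probe on a pair of arrays. Levels of different probes are not comparable. Where a gene had several probes its brightest one was used, and the remaining probes are given beside it. By its 75th percentile CRL1505 + LPS was the dimmest array, with an intensity of 517.0 beside 743.1 (LPS) and 697.9 (CRL1506 + LPS). CRL1505 + LPS also had the smallest share of its 59305 gene spots well above background. That share was 48.5%, beside 54.5% in LPS and 55.3% in CRL1506 + LPS. The lowest intensity well above background lay between 29.6 and 33.3. Over probes spotted repeatedly, the SD of the log2 ratio to LPS within an array had a median of 0.048 for CRL1505 and 0.043 for CRL1506. Among the few of these whose dimmer side had an intensity under 100 it was 0.30 (4 probes) and 0.25 (10 probes). The SD between probes of the same gene had a median of 0.23 and 0.21, respectively. All these errors describe single hybridisations, and RNA from separate cultures was not compared. LPS and CRL1506 + LPS shared a slide and a scan, whereas CRL1505 + LPS had a slide and a scan of its own, so strain and slide cannot be told apart in any comparison with that array. Of 9 macrophage markers, 8 were well above background on all arrays, and *Mrc1* was so on the LPS array only. Their summed signal, in multiples of the 75th percentile, was 696.1, 671.9 and 563.8 for LPS, CRL1505 + LPS and CRL1506 + LPS. The summed signal of 7 osteoblast and stromal markers was between 0.68 and 0.94, with *Sp7* and *Alpl* well above background on all arrays, *Col1a1* and *Col1a2* on some, and *Bglap*, *Runx2* and *Pdgfra* on none. That of 4 T cell markers, 4 epithelial markers and 4 mast cell markers reached at most 1.34. The T cell genes *Cd3e* and *Cd3d* and the B cell genes *Ms4a1* and *Pax5* were well above background on all arrays and the mast cell gene *Kit* on that of CRL1506 + LPS, while *Cd3g*, *Cd8a*, *Cpa3*, *Fcer1a*, *Mcpt4* and the epithelial genes were so on none. The part of other cell types in the results was not tested.

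Of the 10 genes, 7 had a brightest probe well above background on all arrays, namely *Tnfrsf11a*, *Nfatc1*, *Ctsk*, *Ocstamp*, *Oscar*, *Car2* and *Atf2*. *Dcstamp* and *Acp5* were well above background on some arrays, and *Calcr* on none. In CRL1505 + LPS, 8 of them could be compared with LPS, of which 2 lay above it and 2 below it by a factor of 2 or more. Among all genes compared, 9.92% lay above and 8.41% below by that factor. In CRL1506 + LPS, 9 could be compared, with 1 above LPS and 2 below it by the same factor, against 5.67% and 3.52% of all genes compared. The median log2 ratio was -0.26 over the 8 genes and -0.21 over the 9, beside 0.01 and -0.06 over all genes. The median absolute log2 ratio was 0.93 and 0.65, beside 0.41 and 0.26. With the spike-in scaling described further on, 4 genes were again past 2-fold for CRL1505, but not the same ones, with 0 higher and 4 lower. *Tnfrsf11a* (log2 ratio 0.64) and *Ctsk* (0.83) stayed above 0 but came under 2-fold, while *Nfatc1* (-1.46) and *Ocstamp* (-1.32) passed it downward. The counts are small for each strain, and both strains use the same LPS array, so that any deviation of that array enters both alike. The receptor gene *Tnfrsf11a* was higher with CRL1505, the protease gene *Ctsk* was higher with either strain, and the fusion gene *Dcstamp* and the carbonic anhydrase gene *Car2* were lower with either strain. In RNA of whole cultures, fewer cells that express a gene and less of its RNA per cell cannot be told apart.

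**Figure D1:**
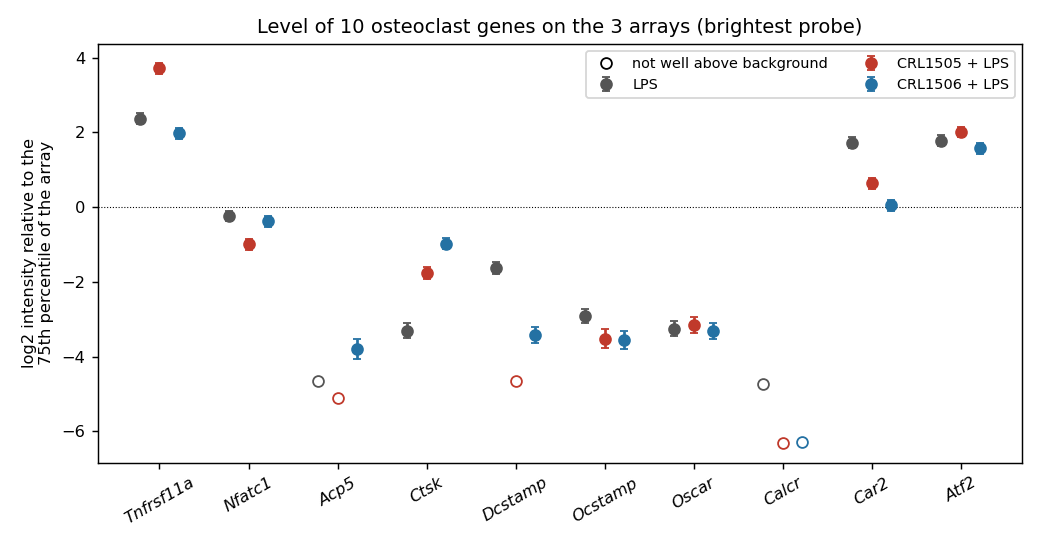
Level of the brightest probe of each gene on the 3 arrays, as log2 intensity relative to the 75th percentile of the array (y axis), with the gene on the x axis; bars are the error that the Feature Extraction software gives for the spot, and open circles mark spots not well above background. *Tnfrsf11a* stands highest in CRL1505 + LPS, *Ctsk* is lowest in LPS, and *Dcstamp* and *Car2* are highest in LPS; heights of different genes cannot be compared.

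*Tnfrsf11a* encodes RANK, the receptor that commits a precursor to the osteoclast fate. Its brightest probe (mm9, chromosome 1, 107741892 to 107741951, plus strand, from base 2355 of its annotated transcript) had a level of 2.37 in LPS, 3.71 in CRL1505 + LPS and 1.97 in CRL1506 + LPS. CRL1505 + LPS was thus the highest array and CRL1506 + LPS the lowest. The log2 ratio to LPS was 1.34 for CRL1505, a 2.54-fold difference, and -0.40 for CRL1506, or 1.32-fold lower. The software's own error for the spots gives 0.20 for each of these ratios. A second probe, from base 4215 of the same transcript, had log2 ratios of 1.25 and -0.58. The third probe was annotated to a different Ensembl transcript and lay upstream in the gene (mm9, chromosome 1, 107710861 to 107710920). Its log2 ratios were 0.42 and -0.38, so for CRL1505 the gene's probes spread with an SD of 0.51, and this one did not reach 2-fold. The difference between strains was 1.74 on the log2 scale, that is 3.34-fold higher in CRL1505 + LPS, with a range of 0.80 to 1.84 over the probes.

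The direction of *Tnfrsf11a* was the same for both strains in 7 other normalizations. For CRL1505 the log2 ratio there lay between 0.64, with scaling to spike-in probes, and 1.64, with a shift of the arrays by their medians, and it was past 2-fold in 6 of 7. The spike-in scaling moved the median of all 13125 genes well above background on every array to -0.65 for CRL1505, from 0.06 in the values used here, and it lowers every gene by the same amount. The difference between the strains stayed past 2-fold in all 7, between 1.22 and 2.24. The genes with the most similar levels over the arrays, by Euclidean distance between centred log2 levels among 13124 genes, were *Map2k1* (0.019), *Scn8a* (0.035) and *Fam129a* (0.042). *Map2k1*, which encodes a kinase of the ERK cascade, had log2 ratios of 1.33 and -0.38.

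**Figure D2:**
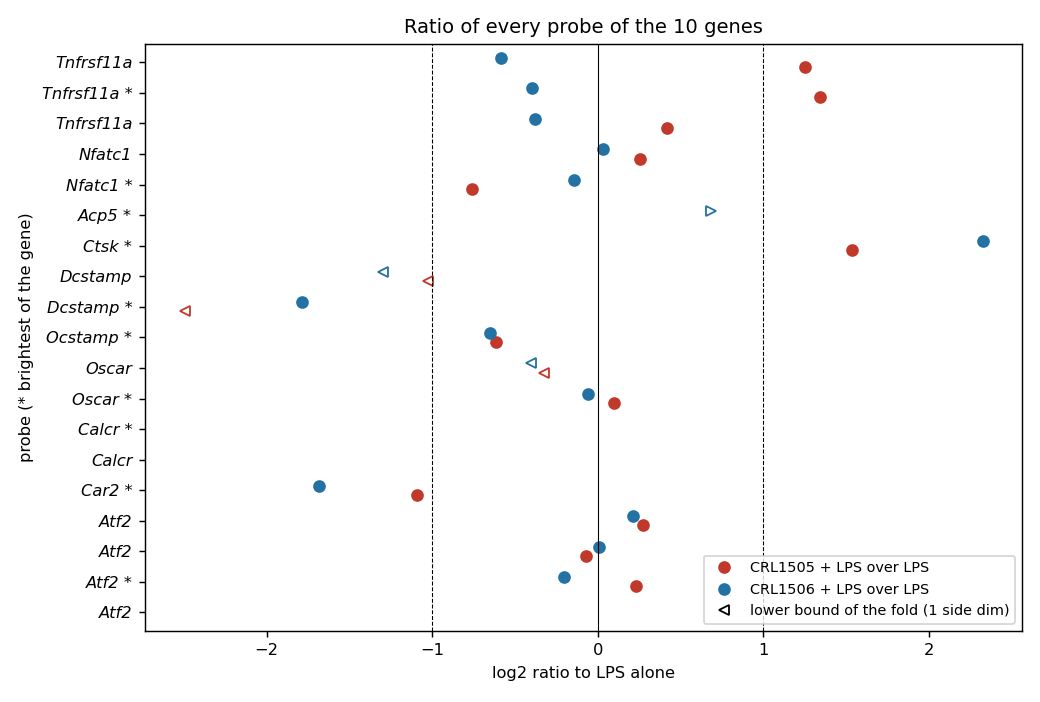
Log2 ratio to LPS alone (x axis) of every probe of the 10 genes (y axis), in red for CRL1505 + LPS and in blue for CRL1506 + LPS; filled circles are measured ratios, open triangles are bounds where 1 of the 2 arrays was not well above background, and dashed lines mark 2-fold. For CRL1505, 2 of 3 *Tnfrsf11a* probes lie beyond 2-fold upward, and both *Dcstamp* probes lie beyond 2-fold downward; probes with neither array well above background, or with a spot left out, have no point.

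*Ctsk* encodes cathepsin K, the cysteine protease with which osteoclasts digest bone collagen. It had 1 probe (mm9, chromosome 3, 95313165 to 95313224, plus strand), with an intensity of 75.4 ± 10.9 (software error of the spot) in LPS, 152.1 ± 16.8 in CRL1505 + LPS and 354.6 ± 36.4 in CRL1506 + LPS. The corresponding levels were -3.30, -1.76 and -0.98, so LPS alone was the lowest array and CRL1506 + LPS the highest. The log2 ratio to LPS was 1.54 for CRL1505 (2.90-fold) and 2.32 for CRL1506 (5.01-fold), each with a spot error of 0.26. Between the strains the log2 ratio was -0.79, or 1.73-fold lower in CRL1505 + LPS, which did not reach 2-fold. On the CRL1506 + LPS array 4 of the 20 spots nearest to the *Ctsk* spot were uneven (mean over median pixel signal above 0.2 on the log2 scale), and their part in the ratio was not tested. The LPS spot was dim, beside a lowest detected intensity of 33.3 on its array. For CRL1506 it was past 2-fold in all 7 other normalizations, with 1.40 at the lowest, after normexp background correction. For CRL1505 it was past 2-fold in 4 of 7, with 0.83 at the lowest and 1.83 at the highest. The genes with the nearest pattern were the loci *Gm36151* (0.016), *9930017N22Rik* (0.069) and *AU024581* (0.080).

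*Ctsk* was at least 2-fold higher with either strain, and *Tnfrsf11a* was so with CRL1505 only. The stretches that precede the starts of these genes are shown from 250 to 51 bases before the RefSeq start. They were read on GRCm38.p6, at chr3:95498960-95499159 and chr1:105780473-105780672, both on the plus strand. Capitals mark matches, on either strand. The letters GGAAA (NFAT core), TGANTCA (AP-1) and GAGGAA (PU.1) are ones that osteoclast transcription factors are known to favour. CANGTG, also marked, is a broad form of the E-box and is not tied to a particular factor here.
Ctsk: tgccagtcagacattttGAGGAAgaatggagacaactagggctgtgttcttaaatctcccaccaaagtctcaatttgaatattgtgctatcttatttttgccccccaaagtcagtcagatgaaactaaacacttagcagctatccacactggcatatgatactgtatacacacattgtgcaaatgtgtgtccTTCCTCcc
Tnfrsf11a: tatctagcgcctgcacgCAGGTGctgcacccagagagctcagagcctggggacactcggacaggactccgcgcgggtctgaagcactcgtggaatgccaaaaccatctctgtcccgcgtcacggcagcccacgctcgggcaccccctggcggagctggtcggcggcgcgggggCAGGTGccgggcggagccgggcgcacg
The *Ctsk* stretch held 2 matches to GAGGAA, at 233 bases and, on the other strand, 58 bases before the start, and the *Tnfrsf11a* stretch held 2 matches to CANGTG, at 233 and 77 bases. Neither held the other motifs. Of all 32851 stretches of the same length before RefSeq starts, 18.8% held the PU.1 letters, 33.6% the E-box, 48.5% the NFAT core and 5.57% the AP-1 letters. The PU.1 letters can overlap the NFAT core at their end, which did not happen here. A match is a run of letters and no measure of binding.

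*Dcstamp* encodes DC-STAMP, a membrane protein required for precursors to fuse into multinucleated cells. Its brightest probe (mm9, chromosome 15, 39592421 to 39592480, plus strand) had an intensity of 239.99 ± 25.1 in LPS, 20.6 ± 7.11 in CRL1505 + LPS and 65.5 ± 9.91 in CRL1506 + LPS. LPS alone was clearly the highest array, and the CRL1505 + LPS spot was not well above background. With CRL1505, *Dcstamp* was at least 5.63-fold lower than in LPS (log2 ratio at most -2.49), where the dim side was set to the lowest level well above background on its array, and the measured log2 ratio was -3.02. In CRL1506 + LPS it was 3.44-fold lower (-1.78, spot error 0.27). A second probe, from base 1560 of the transcript where the first starts at base 1935, was well above background in LPS only, at 86.6 ± 11.1, and was at least 2-fold lower with both strains (log2 ratios of at most -1.02 and -1.30). Both probes thus gave the same direction. In the 7 other normalizations the ratio of the brightest probe stayed past 2-fold for both strains, from -3.20 to -1.37 with CRL1505 and from -2.05 to -1.24 with CRL1506. Between the strains, CRL1505 + LPS was at least 1.64-fold lower, a bound that does not settle whether 2-fold was reached. The measured log2 ratio between them was -1.23.

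*Ocstamp* encodes OC-STAMP, a related membrane protein that also takes part in osteoclast fusion. Its single probe (mm9, chromosome 2, 165220960 to 165221019, minus strand) was dim, with an intensity of 99.2 ± 12.6 in LPS, 45.1 ± 8.16 in CRL1505 + LPS and 59.3 ± 9.91 in CRL1506 + LPS. LPS alone was again the highest array. The log2 ratio to LPS was -0.61 with CRL1505 (spot error 0.32) and -0.65 with CRL1506 (0.30), both under 2-fold. The sign held in all 7 other normalizations with each strain, and CRL1505 passed 2-fold in 1 of them, the spike-in scaling, at -1.32. Between the strains the log2 ratio was 0.04 and its sign depended on the normalization, with a range of -0.48 to 0.62.

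*Car2* encodes carbonic anhydrase II, which supplies the protons that osteoclasts secrete onto bone. Its single probe (mm9, chromosome 3, 14900206 to 14900265, plus strand) was bright on each array, with an intensity of 2463 ± 246.4 in LPS, 803.2 ± 80.6 in CRL1505 + LPS and 721.0 ± 72.5 in CRL1506 + LPS. Its level was 1.73, 0.64 and 0.05, respectively, so that LPS alone was the highest array and CRL1506 + LPS the lowest. Relative to LPS, *Car2* was 2.13-fold lower with CRL1505 (-1.09 on the log2 scale) and 3.21-fold lower with CRL1506 (-1.68), each with a spot error of 0.20. Between the strains the log2 ratio was 0.59, under 2-fold. In the other normalizations it was negative throughout, past 2-fold in 7 of 7 for CRL1506 and in 6 of 7 for CRL1505, where it came to -0.80 with the median shift. On the CRL1505 + LPS array 4 of the 20 spots nearest to the *Car2* spot had an uneven signal. The spot itself was even, and the part of its neighbours in the ratio was not tested. The nearest patterns were those of *Twist2* (0.030), *Ctla2b* (0.043) and *Cipc* (0.13). *Twist2*, a basic helix-loop-helix repressor, had log2 ratios of -1.09 and -1.65.

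*Nfatc1* encodes NFATc1, the transcription factor that RANK and calcium signals induce. Its brightest probe (mm9, chromosome 18, 80803664 to 80803723, minus strand) had a level of -0.24 in LPS, -0.99 in CRL1505 + LPS and -0.38 in CRL1506 + LPS. CRL1505 + LPS was the lowest array, while the other arrays were 0.14 apart, beside an SD of 0.12 between the probes of the gene in that comparison. The log2 ratio to LPS was -0.76 for CRL1505 (1.69-fold lower) and -0.14 for CRL1506, and neither reached 2-fold. The second probe lay upstream in the gene and is annotated to other RefSeq transcripts (mm9, chromosome 18, 80845439 to 80845498). It was dim, with intensities of 62.9, 52.1 and 60.3, and its log2 ratios were 0.25 and 0.03, with spot errors of 0.33. For CRL1505 the probes therefore differed in sign, with an SD of 0.71. The brightest probe passed 2-fold for CRL1505 in 1 of 7 other normalizations, the spike-in scaling, at -1.46.

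*Acp5* encodes the tartrate-resistant acid phosphatase (TRAP) by which osteoclasts are stained. Its single probe (mm9, chromosome 9, 21931190 to 21931249, minus strand) had an intensity of 29.7 ± 8.07 in LPS, 15.1 ± 7.18 in CRL1505 + LPS and 50.2 ± 9.22 in CRL1506 + LPS, and was well above background on the last of these only. With CRL1506, *Acp5* was at least 1.60-fold higher than in LPS (log2 ratio of at least 0.68), and no ratio can be given for CRL1505. In the 7 other normalizations this bound lay between 0.18 and 0.77. The measured log2 ratio was 0.85, with a spot error of 0.47. *Oscar* encodes an immunoglobulin-like receptor that co-stimulates osteoclast formation through the ITAM adapter FcRγ. Its brightest probe (mm9, chromosome 7, 3561419 to 3561478, minus strand) had intensities of 77.8 ± 10.8, 57.98 ± 8.81 and 70.3 ± 10.4 in LPS, CRL1505 + LPS and CRL1506 + LPS. It had log2 ratios of 0.10 with CRL1505 and -0.06 with CRL1506, and both signs depended on the normalization. The second probe was well above background in LPS only, at 53.4 ± 9.62, with log2 ratios of at most -0.33 and -0.41. *Calcr* encodes the calcitonin receptor, a marker of mature osteoclasts. Neither of its 2 probes was well above background on any array, and the brighter one had intensities of 27.96, 6.46 and 8.99, so no fold is given.

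*Atf2* encodes a leucine zipper factor that p38 phosphorylates and that pairs with AP-1 proteins. Its brightest probe lay at the 3' end of the transcript (mm9, chromosome 2, 73654638 to 73654697, minus strand) and had a level of 1.78 in LPS, 2.01 in CRL1505 + LPS and 1.58 in CRL1506 + LPS. The log2 ratios of 0.23 and -0.21 were about as large as the spot error of 0.20. For CRL1505 the sign turned with the spike-in scaling, to -0.48. The other probes are shown because 1 of them disagreed with the rest. Their sequences, as printed on the array, lie on the minus strand of chromosome 2 on mm9, at 73684290 to 73684349, 73666533 to 73666592 and 73683282 to 73683341.
Atf2 probe from base 899: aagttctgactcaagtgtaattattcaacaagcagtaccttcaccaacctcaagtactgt
Atf2 probe from base 1490: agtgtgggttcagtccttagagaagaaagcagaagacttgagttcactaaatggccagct
Atf2 probe of an Ensembl transcript: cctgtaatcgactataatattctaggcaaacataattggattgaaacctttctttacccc
The probes from bases 899 and 1490, which target the RefSeq transcripts, had log2 ratios of 0.27 and -0.07 for CRL1505 and of 0.21 and 0.01 for CRL1506. The last probe lies between them on the chromosome and carries no RefSeq accession in the files. It was near background in LPS (7.82) and CRL1505 + LPS (21.1), and its spot of 211.4 in CRL1506 + LPS was marked as an outlier by the software and was left out. Over the 3 probes used, the log2 ratios of *Atf2* thus lay between -0.21 and 0.27 and none reached 2-fold.

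**Figure D3:**
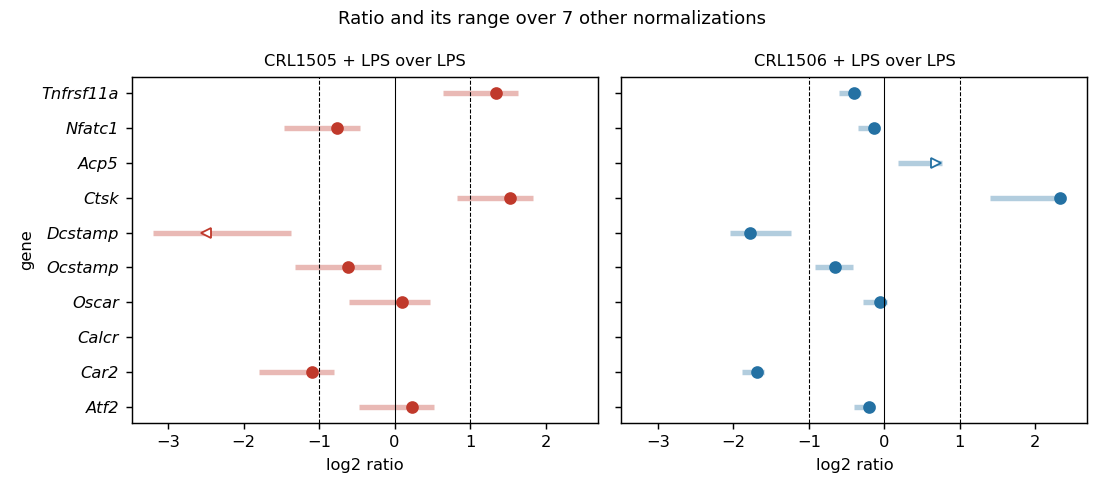
Log2 ratio to LPS alone (x axis) of each gene (y axis), for CRL1505 + LPS on the left and CRL1506 + LPS on the right; points are the values used here (open triangles are bounds), bands run from the lowest to the highest of 7 other normalizations, and dashed lines mark 2-fold. The bands of *Dcstamp* and of *Car2* stay below 0 and that of *Ctsk* above 0 with both strains, while those of *Oscar* cross 0.

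The other genes of the pathway were followed on 7 lists with 139 genes, of which 123 could be compared. In CRL1505 + LPS, 10 of these were above LPS and 10 below it by 2-fold or more, which is 16.3% past 2-fold beside 18.3% of all genes compared. In CRL1506 + LPS, 2 were above and 3 below, or 4.07% beside 9.19%. Over the pooled lists the share past 2-fold was thus no larger than over the array. Single lists differed, from 0% for cell fusion and adhesion with both strains to 41.7% (CRL1505) and 25% (CRL1506) for the M-CSF and cytokine list, which holds only 12 compared genes. For CRL1505 the split was 20 higher and 8 lower with the median shift, and 3 higher and 35 lower with the spike-in scaling, and for CRL1506 it was 1 higher and 9 lower with either. The splits over all genes under these scalings are not given. The median log2 ratios of the 123 genes were 0.07 with CRL1505 and -0.18 with CRL1506.

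The list from RANK to NF-κB, MAP kinases and AP-1 had 27 of 29 genes compared. *Tnfsf11*, the gene of RANKL, and *Tnfrsf11b*, the gene of its decoy receptor osteoprotegerin, were well above background on no array. In CRL1505 + LPS, 2 passed 2-fold upward and 1 downward, whereas none passed 2-fold in CRL1506 + LPS. The AP-1 genes *Fos* and *Fosl1* had log2 ratios of 1.76 and 1.15 for CRL1505 and of 0.13 and 0.74 for CRL1506. *Fos*, whose product is required for osteoclast commitment, stayed past 2-fold for CRL1505 in all 7 other normalizations, and *Fosl1* did in 4. *Map2k6*, an activator of p38, had log2 ratios of -1.05 and -0.78, and passed 2-fold for CRL1505 in 3 of the 7, with -0.75 at the weakest.

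The list of ITAM co-receptors and calcium signaling had 20 of 22 genes compared, with 2 past 2-fold upward and 1 downward for CRL1505 and none for CRL1506. *Blnk*, an adapter that links ITAM kinases to phospholipase C, had log2 ratios of 1.32 and 0.76. *Syk*, the kinase that docks on ITAMs, had 1.26 and 0.86, with probes from 0.54 to 1.86 for CRL1505 and from 0.86 to 2.58 for CRL1506. *Nfatc2*, a relative of *Nfatc1*, had -1.56 and -0.46 and remained past 2-fold for CRL1505 in every other normalization.

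Among transcription factors that promote or repress osteoclast genes, 17 of 18 could be compared, with 2 past 2-fold upward and 2 downward for CRL1505 and 1 downward for CRL1506. *Id1*, a dominant-negative helix-loop-helix protein, was lower with both strains, with log2 ratios of -1.38 and -1.96 that passed 2-fold in all 7 other normalizations. *Nr4a1*, an orphan nuclear receptor, had 2.26 for CRL1505 and 0.07 for CRL1506. *Tfeb*, a lysosomal regulator, had 1.20 and -0.43, but its probes ranged from -1.14 to 1.20 for CRL1505.

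Of the genes for cell fusion and adhesion, 11 of 16 could be compared, and none passed 2-fold with either strain. The integrin gene *Itgb3* and the fusion-linked genes *Cd200* and *Cd200r1* could not be compared. The median of the 11 was -0.27 with CRL1505 and -0.26 with CRL1506. *Dcstamp*, by comparison, was past 2-fold with both.

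Of the genes for acid secretion and matrix digestion, 23 of 26 could be compared. For CRL1505, 2 passed 2-fold upward and 2 downward, and for CRL1506 1 upward. *Ckb*, the creatine kinase of osteoclasts, had log2 ratios of -1.34 and -0.61. *Snx10*, a sorting nexin of osteoclast vesicles, had 1.21 and -0.08, with probes from -0.08 to 2.02 for CRL1506. *Car13*, another cytosolic carbonic anhydrase, had 1.18 and 0.31. The erythroid isoform *Car1* was dim, with levels of -3.56, -3.24 and -2.48, and had a log2 ratio of 1.07 for CRL1506, which passed 2-fold in 1 of 7 other normalizations and came down to 0.49. The proton pump subunit gene *Atp6v0d2*, a marker of osteoclast differentiation, could not be compared. *Car13* and *Car1* were thus on the opposite side of LPS from *Car2* with both strains, though with the spike-in scaling *Car1* came to -0.39 for CRL1505.

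Of the list of receptor genes for M-CSF and inflammatory cytokines, which also holds the M-CSF receptor ligands *Csf1* and *Il34*, 12 of 14 could be compared, with 1 past 2-fold upward and 4 downward for CRL1505, and 1 upward and 2 downward for CRL1506. Of the 4, 1 was *Il34*, a ligand, with a log2 ratio of at most -1.89 (named after its value was seen). Its bound was past 2-fold in 6 of 7 other normalizations, with -0.99 at the weakest. *Cx3cr1*, the fractalkine receptor of monocytes, had a level of 1.71 in LPS and -0.39 in CRL1506 + LPS and was not well above background in CRL1505 + LPS. Its log2 ratio was -2.10 for CRL1506 and at most -5.84 for CRL1505, a bound that was -4.23 at the weakest over the other normalizations. *Csf1r*, the receptor of M-CSF, was bright on each array (levels of 7.34, 5.87 and 6.47) and had log2 ratios of -1.47 and -0.87. The TNF receptor gene *Tnfrsf1b* had 1.46 and 0.10, the latter with probes from 0.10 to 1.17, and *Il6ra* had -1.30 and -0.25. *Ifnar1*, a subunit of the receptor for type I interferon, had 0.46 and 1.37, with probes from -0.43 to 1.37 for CRL1506. *Tgfbr2* had -0.98 and -1.08. With the spike-in scaling *Fosl1*, *Blnk*, *Syk*, *Tfeb*, *Snx10*, *Car13* and *Tnfrsf1b* came under 2-fold for CRL1505, at 0.44 to 0.76.

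Among the relatives of *Atf2* in the ATF and CREB family, 13 of 14 could be compared. Only *Batf2*, an interferon-induced factor, passed 2-fold, at 2.08 on the log2 scale with CRL1505 and 0.49 with CRL1506. The median of the list was 0.29 and -0.18, close to the values of *Atf2*.

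**Figure D4:**
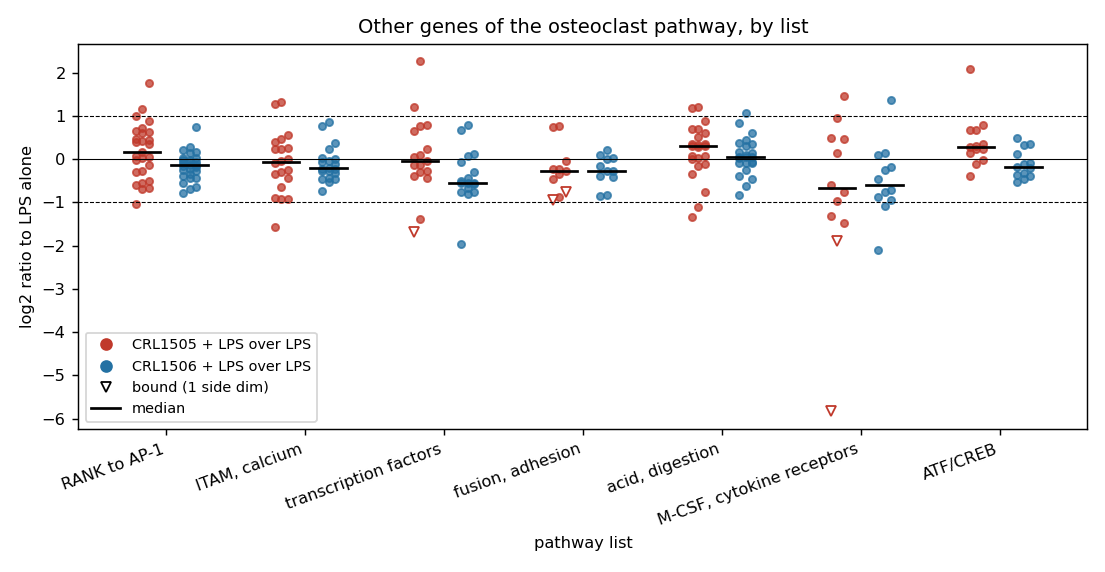
Log2 ratio to LPS alone (y axis) of the other pathway genes that could be compared, by list (x axis), in red for CRL1505 + LPS and in blue for CRL1506 + LPS; black bars are medians, open triangles are bounds and dashed lines mark 2-fold. Most genes lie within 2-fold of LPS, and *Cx3cr1* is the lowest point, with a bound of -5.84 for CRL1505.

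Set directly against each other, CRL1505 + LPS and CRL1506 + LPS differed by at least 2-fold in 1 of the 9 genes that could be compared, namely *Tnfrsf11a*. Beside this, 16.5% of all genes compared were past 2-fold, 9.01% upward and 7.46% downward. *Ctsk* (-0.79) and *Nfatc1* (-0.61) were lower in CRL1505 + LPS, while *Car2* (0.59) was higher, all under 2-fold. *Dcstamp* (at most -0.71) and *Acp5* (at most -0.33) were lower too, but these are bounds that do not settle whether 2-fold was reached. Over the other normalizations the bound weakened to -0.13 for *Dcstamp* and to -0.02 for *Acp5*, which had one in only 4 of 7. With the spike-in scaling, under which the median of all genes was -0.43 in this comparison, *Ctsk*, *Nfatc1* and *Dcstamp* passed 2-fold as well, at -1.31, -1.13 and at most -1.23. With the median shift, under which it was 0.58, *Car2* did, at 1.08.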

How the data were processed

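RNA of RAW 264.7 macrophages was labelled with Cy3 and hybridised to SurePrint G3 Mouse GE 8x60K arrays, 1 array per condition. The authors deposited Feature Extraction output (version 12.0.3.1 in the file headers, another in the design of the series), in which the processed intensity of each spot has its background subtracted and spatial trend removed, without normalization between arrays. The authors also deposited log2 values normalized between arrays, whose median was 6.77 on each array. These were within 0.135 of quantile-normalized log2 median intensities corrected by normexp with an offset of 50, and served as an alternative. limma is named in the submitters' processing notes.

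The log2 processed intensity of each array was centred on its 75th percentile over gene spots. Outlier spots were left out, repeated spots averaged, and no gene spot was saturated. Of the probes of a gene, the one with the highest mean was used, and one with an outlier spot only where there was no other. A probe not well above background on 1 of the arrays compared was set there to the higher of its own level and the lowest level well above background, which gives a bound. With neither side well above background there was no ratio. The threshold of 2-fold is that of the study's methods, which set it for comparisons with cells without LPS. Here it was used against LPS alone and between the strains. The test that went with it in the study needs replicates and was not run.

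The 10 genes, the lists and the settings were chosen with earlier results of these data known. All 10 genes are named, and from the lists the genes past 2-fold with both strains and up to 3 per strain and list with the largest log2 ratio, measured ratios before bounds. Likeness of pattern was the distance between centred log2 levels on 3 arrays, for the genes past 2-fold and well above background on all arrays. The promoter table of RefSeq (GRCm38.p6) held 6 of the 10 genes. One marker is not reported here. Probe positions were taken from the files (mm9).

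Alternatives were 7 other normalizations (median shift, 75th percentile of detected probes, E1A spike-in probes, quantile, cyclic loess, normexp with quantile, the deposited log2 values), dropping the filter on dim signal, restricting to signal detected on every array, averaging probes, outlier spots kept, uneven spots left out (mean over median pixel signal above 0.2 on the log2 scale), and thresholds of 1.5-fold and 4-fold. The tools were pandas 2.3.3 and NumPy 2.4.6 (Python 3.11.15) and limma 3.58.1 (R 4.3.3). The procedure was also run on simulated data in which only bright probes were changed. That simulation held no variation between cultures, so it covers neither dim genes nor separate cultures. The number of arrays limits the precision.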

Additional observations from a re-analysis of the deposited data

Results flagged for a closer look

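The log2 ratio of *Tnfrsf11a* to LPS was above 0 in CRL1505 + LPS (1.34) and below 0 in CRL1506 + LPS (-0.40), a difference of 1.74 between the strains. It was singled out as a difference between the groups. *Atf2* (0.23 and -0.21) and *Oscar* (0.10 and -0.06) also had ratios on opposite sides of LPS, all under 2-fold. With 1 array per strain the difference of *Tnfrsf11a* was not tested, and the strain cannot be told apart from the slide.

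A probe of *Atf2* that carries no RefSeq accession had a spot that was left out on the CRL1506 + LPS array, where its signal was above that in LPS by 4.85 on the log2 scale. The mean of its pixels exceeded their median by 1.16 on the log2 scale, and 6 of the 20 nearest spots were uneven as well. The other 3 probes of the gene had log2 ratios between -0.21 and 0.21 for that strain.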

How the results depend on the processing

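No paired analysis was possible because each condition had 1 array, and for the same reason no replicate could be left out. Over 12 settings that keep the 2-fold threshold, no ratio past 2-fold among the 10 genes changed its sign, wherever a ratio could be had. The counts below are given without the share of all genes past the threshold under each changed setting. They show how the numbers move with the setting and are no result about these genes. For CRL1505 against LPS, the number of the 10 genes past 2-fold was 4. It was 3 with the median shift, normexp with quantile, the deposited log2 values and signal detected on every array. It was 5 with no filter on dim probes, 6 at 1.5-fold and 1 at a 4-fold threshold. With the spike-in scaling it was 4 as well, but not the same genes, with 0 higher and 4 lower. For CRL1506 the number was 3, and 2 with signal detected on every array, 4 with no filter on dim probes, 5 at 1.5-fold and 1 at 4-fold. Between the strains it was 1, and 2 with the median shift, 4 with the spike-in scaling, 3 with no filter on dim probes, 5 at 1.5-fold and 0 at 4-fold. Of the other pathway genes, 20 passed 2-fold for CRL1505, and 38 with the spike-in scaling (3 higher and 35 lower). There were 29 with no filter on dim probes, 17 with signal detected on every array, 53 at 1.5-fold and 3 at 4-fold. With the median shift 20 were higher and 8 lower. For CRL1506 5 passed, and 10 with the median shift, with the spike-in scaling and with no filter on dim probes, 28 at 1.5-fold and 1 at 4-fold. Between the strains 19 passed, 13 of them higher in CRL1505 + LPS, and 38 with the median shift (37 higher), 21 with the spike-in scaling (4 higher and 17 lower), 12 with the deposited log2 values, 46 at 1.5-fold and 2 at 4-fold. Of the log2 ratios of the 10 genes under these settings, 236 moved by less than the typical probe-to-probe SD and 68 by more. The 236 include ratios that a setting could not change, such as averaging probes for a gene with a single probe. They are thus no measure of stability, and the cause of the moves was not tested. Low signal over background limits *Acp5*, *Calcr*, *Oscar*, *Ocstamp*, the LPS value of *Ctsk*, the *Dcstamp* values with either strain and the second *Nfatc1* probe.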
